A study of Rattus norvegicus with 16 samples.

Results

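Metallothionein and copper handling in rat liver were followed here through 6 genes: Mt1a, Mtf1, Slc30a1, Slc31a1, Atp7b and Cp. They were taken by name, as every non-control probe of the array that carries one of these gene names. This gave 9 probes of the 41012 on the array, 4 of them for Cp and 1 for each other gene, and 6 of the 21458 genes tested. All 9 probes passed the filter on dim signals, and each lay well above background on all 16 arrays. The study measured liver RNA of male Lewis rats, an inbred strain, at 3, 9, 12, 18 and 24 months of age, with 3 arrays at each age and 4 at 24 months. Housing was free of specific pathogens, with light for 12 h a day and food and water at will, and the labels name no transgene and no treatment. Samples are numbered within an age, but no label says that each came from a separate rat, so p-values measure the spread between these samples. The hour of tissue collection is not stated.

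Metallothioneins are small cysteine-rich proteins that bind zinc and copper, and their genes are among the most readily induced in liver, by metals through the transcription factor MTF1 and by glucocorticoids and inflammatory cytokines. Hepatocytes take up copper through the plasma membrane transporter encoded by Slc31a1 (CTR1), and the copper ATPase encoded by Atp7b loads it onto ceruloplasmin, the product of Cp, or exports it into bile. Loss of ATP7B in humans causes Wilson disease, in which copper builds up in the liver. Slc30a1 (ZnT1) exports zinc across the plasma membrane and is, with the metallothionein genes, a classical target of MTF1.

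MTF1 binds metal response elements, whose core is written TGCACNC or TGCGCNC. The windows of RefSeq promoters (build GRCr8, 250 bases before to 50 after the start) were searched for this core on both strands, and the bases before the start are printed for Mt1a, Mt2A and Slc30a1, the MTF1 targets among the genes described, with each core in capitals, in the orientation of the gene. All 6 members matched a promoter of the table, where Mt1a is listed as Mt1. Mt1a and Mt2A lie on the minus strand at chr19:10832976-10833225 and chr19:10838709-10838958, and Slc30a1 on the plus strand at chr13:106021769-106022018.
Mt1a: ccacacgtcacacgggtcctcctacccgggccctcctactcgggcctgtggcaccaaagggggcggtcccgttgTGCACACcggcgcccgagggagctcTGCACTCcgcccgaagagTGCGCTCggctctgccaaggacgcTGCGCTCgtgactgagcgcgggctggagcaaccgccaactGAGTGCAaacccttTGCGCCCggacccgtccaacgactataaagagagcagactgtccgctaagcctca
Mt2A: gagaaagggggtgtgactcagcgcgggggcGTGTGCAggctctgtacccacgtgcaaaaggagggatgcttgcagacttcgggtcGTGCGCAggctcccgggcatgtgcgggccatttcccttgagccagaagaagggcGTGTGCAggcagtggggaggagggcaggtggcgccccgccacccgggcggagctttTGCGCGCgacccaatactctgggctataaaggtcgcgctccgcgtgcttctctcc
Slc30a1: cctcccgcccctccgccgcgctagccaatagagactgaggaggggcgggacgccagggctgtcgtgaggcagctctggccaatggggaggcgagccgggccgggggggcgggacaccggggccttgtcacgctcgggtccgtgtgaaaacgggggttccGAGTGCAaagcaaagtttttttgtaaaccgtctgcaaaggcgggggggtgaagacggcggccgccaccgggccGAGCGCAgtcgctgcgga
The Mt1a window held 6 cores and that of Mt2A, the other liver metallothionein gene, held 4. Slc30a1 and Mtf1 had 2 each and Atp7b had 1, while none was found in the windows of Slc31a1 and Cp. Of 33469 rat promoters, 24.2% held at least 1 core, 6.36% at least 2, 0.439% at least 4 and 0.0388% at least 6. A match describes the letters of a window and does not show binding, and the absence of a match says only that these letters are not in it.

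**Figure D1:**
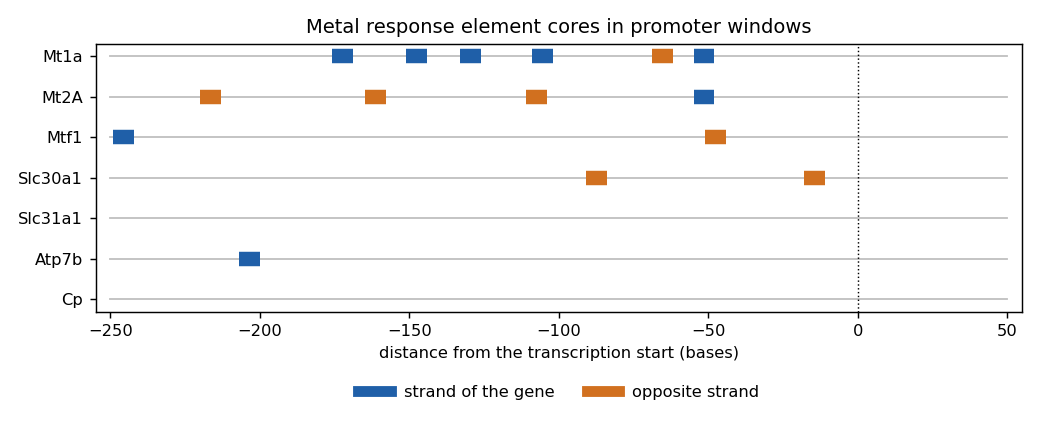
Positions of the metal response element core in the promoter windows of 7 genes, by distance from the transcription start in bases. Blue marks lie on the strand of the gene and orange marks on the opposite strand; Mt1a carries 6 marks and Mt2A 4, and the lines of Slc31a1 and Cp are empty.

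Signals are given as log2 above or below the 75th percentile of the same array, so that 0 is the brightness below which 75% of the probes lie. They compare samples for 1 probe and cannot be compared between probes. Of the probes, 52.5% to 65.2% per array lay well above background, and no spot was saturated. Replicate arrays correlated least at 12 and 24 months, where the mean correlation of an array with others of its age was as low as 0.966 for 12 months replicate 2 and 0.974 for 24 months replicate 3, against 0.997 for the 3-month arrays. The headers give 3 scan days, grouped here into 2 scan sessions, of which session 1 covers 2 days in a row and session 2 a day in another year. Session 2 held 12 months replicates 3 and 4 and all 3 arrays of 18 months, and session 1 the other 11 arrays. In session 1, all arrays of 3 and 9 months and 12 months replicate 2 were scanned on day 1, and all 4 arrays of 24 months on day 3, which held no other age. Age and scan day therefore cannot be told apart at 24 against 3 months. Slide 1 held all 3-month arrays and 9 months replicate 2, slide 2 the other 9-month arrays and 12 months replicate 2. Slide 3 held the other 12-month arrays, and slide 4 the 18-month and slides 5 to 7 the 24-month arrays alone. The correlation within slides was 0.687, but the main fits treat arrays of a slide as independent. With slide as a random block, all-gene calls for 24 against 3 months fell from 2859 to 311. Those for 12 against 9 months rose from 1346 to 4818. Liver identity was clear in the markers: all 10 hepatocyte markers were measured, and their signals, in multiples of the 75th percentile, summed to 3431 to 5867 at 24 months and 4813 to 5474 at 3 months.

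**Figure D2:**
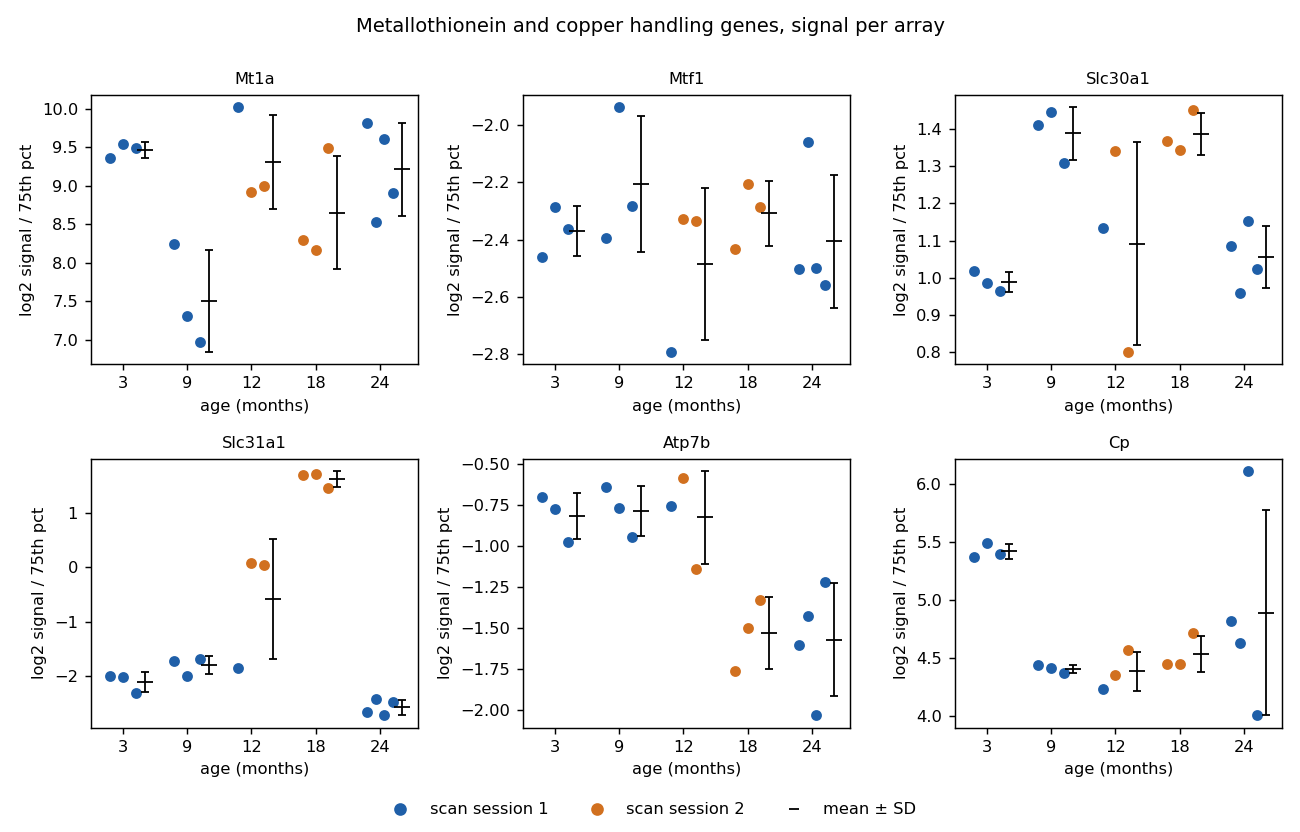
Log2 signal relative to the 75th percentile of the array (vertical axes, which differ between panels) for the 6 genes on 16 arrays, by age in months. Points are arrays, coloured by scan session, and bars are mean ± SD (n = 3, and n = 4 at 24 months). Mt1a is low at 9 months, Slc31a1 is high on the 5 arrays of session 2 alone, and Atp7b is lower at 18 and 24 months than at the earlier ages.

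Each age was compared with its predecessor, and 24 with 3 months, in 1 limma model over all arrays, with p-values adjusted over all genes and called under 0.05. For 24 against 3 months, 1 of the 6 genes was called, Atp7b, which was lower, where 13.3% of all genes tested were called and 9.08% were called lower. For 9 against 3 months 1 of 6 was called (Mt1a, lower), against 5.14% of all genes, 3.2% lower. For 12 against 9 months 1 of 6 was called (Mt1a, higher), against 6.27% of all genes, 3.17% higher. For 18 against 12 months 1 of 6 was called (Slc31a1, higher), against 1.39% of all genes, 1.07% higher. For 24 against 18 months 1 of 6 was called (Slc31a1, lower), against 25.8% of all genes, 15% lower. Any age difference was called for 4 of 6 genes, Mt1a, Slc30a1, Slc31a1 and Atp7b, against 37.4% of all genes. A linear trend over age was called for 1 of 6, Atp7b (lower), against 5.8% of all genes, 4.11% lower. Such shares allow no reading of the 6 genes as a group, and they are described singly. The median change of the 6 genes was -0.36 for 24 against 3 months, where that of all genes was -0.04. At 9 against 3 and 12 against 9 months it was 0.10 and -0.03, with 0.04 and -0.01 for all genes. At 18 against 12 and 24 against 18 months it was 0.17 and -0.07, with -0.06 and 0.05 for all genes.

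Metallothionein expression had its low point at 9 months. Mt1a, probed at chr19:11261706-11261765 of build rn4 on the minus strand, read 9.36, 9.55 and 9.49 at 3 months and 8.24, 7.31 and 6.97 at 9 months. At 12 months it read 10.02, 8.92 and 8.99, at 18 months 8.29, 8.17 and 9.50, and at 24 months 9.82, 8.53, 9.61 and 8.91. Each of the 9-month arrays lay below every array of 3, 12 and 24 months, while the highest of them overlapped the lowest of 18 months. Mt1a fell by 1.96 ± 0.44 (SE) at 9 against 3 months, a 3.88-fold change, with an adjusted p of 0.0193. At 12 against 9 months it rose by 1.80 ± 0.44, or 3.49-fold, with an adjusted p of 0.0300. The later steps were not called, and Mt1a averaged 9.22 ± 0.60 at 24 months (SD, n = 4) and 9.47 ± 0.10 at 3 months (SD, n = 3), with a limma adjusted p of 0.756.

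Mt2A, which is no member but the second metallothionein measured above background, had the same shape of profile. It read 7.73, 7.92 and 8.01 at 3 months, 6.02, 5.01 and 4.49 at 9 months and 7.88, 7.09 and 7.59 at 12 months. At 18 months it read 7.06, 6.60 and 8.55, and at 24 months 8.56, 6.91, 8.70 and 6.71. All 9-month arrays were below all others. Mt2A was lower by 6.56-fold at 9 against 3 months (log2 change -2.71, limma adjusted p = 0.0163) and higher by 5.08-fold at 12 against 9 months (2.34, limma adjusted p = 0.0345). The first call was lost in 6 of 21 alternatives, among them those without any 1 of the 3-month arrays, and the second in 13 of 21, while both changes kept their sign in all. Some alternatives repeat a fit, so such counts are not numbers of separate checks. The 60-base probes of Mt1a and Mt2A share no run of more than 5 bases on either strand. Mt3, the brain form and the other metallothionein on the array, was not well above background on any array.

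All arrays of 9 and 3 months share scan day 1 but not the slide. Slide 1 held all 3-month arrays and, of 9 months, replicate 2 alone, and with slide as a fixed block the change of Mt1a was -2.16 with a limma adjusted p of 0.0686. Among 22 alternative settings the change at 9 against 3 months kept its sign in all and its call in 16, among them a fit within slide 1 that rests on 1 array of 9 months, and that at 12 against 9 months kept its sign in all and its call in 13. With an array left out, the adjusted p for 9 against 3 months was 0.0606, 0.0748 and 0.0716 without 3 months replicates 1, 2 and 3, and 0.0725 and 0.0977 without 9 months replicates 2 and 3. For 12 against 9 months it was 0.0997 and 0.112 without 9 months replicates 2 and 3, and 0.0652 and 0.0513 without 12 months replicates 2 and 4.

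**Figure D3:**
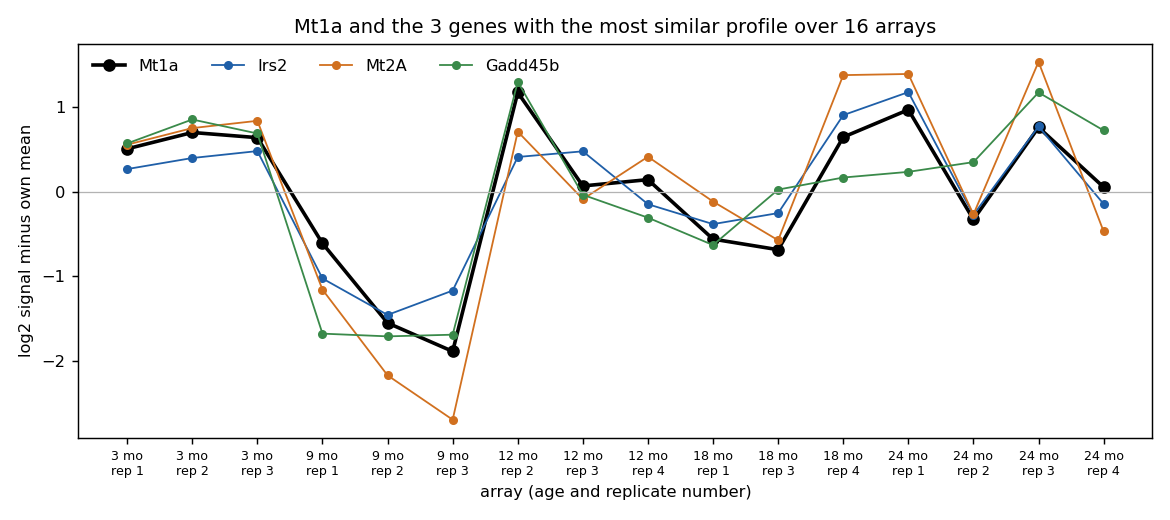
Log2 signal minus the gene's own mean over 16 arrays (vertical axis) for Mt1a and the 3 genes whose profile was most like it, by array in order of age. All 4 lines are lowest at 9 months, and Mt1a and Irs2 run closest together.

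The genes most like Mt1a, by the root mean square difference between centred log2 profiles over 16 arrays and among 9506 genes above background on every array, were Irs2 (0.36), Mt2A (0.47) and Gadd45b (0.49). Irs2 encodes an adaptor of the insulin receptor, and Gadd45b a stress-inducible growth arrest protein. At 3, 9, 12, 18 and 24 months Irs2 averaged 1.22, -0.37, 1.09, 0.93 and 1.23. At the same ages Gadd45b averaged 2.36, -0.03, 1.97, 1.51 and 2.28.

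Genes that glucocorticoids induce in liver moved at the same steps in part. At 9 against 3 months 4 of 14 were called lower and 0 called higher, where 3.2% of all genes were called lower: Fkbp5, a co-chaperone of the glucocorticoid receptor (-1.54), Zbtb16, a zinc finger repressor (-3.09), Tsc22d3, which encodes GILZ (-1.31), and Pck1, the gluconeogenic enzyme (-0.77). Those not called moved in both directions, and among them Angptl4 rose by 1.75 (limma adjusted p = 0.137). At 12 against 9 months 5 of 14 were higher, namely Fkbp5 (1.25), Tsc22d3 (1.32), Pck1 (1.17), the clock gene Per1 (1.56) and the transcription factor Klf9 (0.94), and 1 was lower, the kinase Sgk1 (-1.19), where 6.27% of all genes were called and 3.17% were called higher. The median change of the 14 was -0.47 at 9 against 3 months and 0.74 at 12 against 9 months, where the medians of all genes were 0.04 and -0.01. At 24 against 3 months Zbtb16 (-2.30), Dusp1, a MAP kinase phosphatase (-1.52), and Fkbp5 (-0.70) were lower and Per1 was higher (0.91), where 13.3% of all genes were called. Fkbp5 kept its call in 21 of 21 alternatives at 9 against 3 months, Zbtb16 in 20, Tsc22d3 in 10 and Pck1 in 9. At 12 against 9 months Fkbp5, Pck1 and Per1 kept it in 19 of 21, Tsc22d3 in 11, Sgk1 in 8 and Klf9 in 7. At 24 against 3 months Zbtb16 kept it in 18 of 19, Per1 in 13, Dusp1 in 12 and Fkbp5 in 8. The part of glucocorticoids in the metallothionein values was not tested.

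At 9 against 3 months 2 of 4 neutrophil markers and 3 of 5 T and NK cell markers were also called lower, where 3.2% of all genes were called lower. Of 7 macrophage markers 2 were called higher, where 416 of 21458 genes were called higher. Among the other marker lists, 2 of 6 endothelial and 1 of 6 stellate cell and fibroblast markers were called lower. Called higher there were 1 of 4 cholangiocyte, 1 of 2 pancreas acinar and 1 of 10 hepatocyte markers. The neutrophil markers called were S100a9 (-4.00) and Camp (-4.28), and Camp was well above background on 5 arrays alone. Camp averaged -1.25 at 3 months and -5.53 at 9 months, where the lowest signals well above background were -5.15 to -4.32 per array. The size of the Camp change therefore rests on background signals at 9 months. The summed signal of 4 neutrophil markers, in multiples of the 75th percentile, was 0.712 to 1.22 at 9 months and 14.1 to 16.8 at 3 months, and that of 5 T and NK cell markers was 1.85 to 2.21 at 9 months and 6.74 to 8.0 at 3 months. Of 7 Kupffer cell and macrophage markers, Cd163 (1.24, limma adjusted p = 0.0156) and Vsig4 (1.65, limma adjusted p = 0.00335) were higher at 9 against 3 months and 0 were lower, and the 7 summed to 129 to 138 at 9 months and 135 to 144 at 3 months. At 12 months the neutrophil sum was 1.23 to 3.1 and the T and NK cell sum 2.17 to 5.67. The 10 hepatocyte markers summed to 5954 to 6293 at 9 months and 4813 to 5474 at 3 months, and 1 of them, Hnf4a, was called higher. In liver tissue, fewer cells of a type and less RNA per cell cannot be told apart, and the part of these shifts in the metallothionein values was not tested.

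Mtf1, the metal-sensing factor itself, gave no call in any comparison by limma. Its probe aligned in pieces, between positions 144172266 and 144175534 of rn4 chromosome 5. At 3, 9, 12 and 18 months Mtf1 averaged -2.37 ± 0.09, -2.21 ± 0.24, -2.48 ± 0.27 and -2.31 ± 0.11 (SD, n = 3 each), and -2.41 ± 0.23 in the oldest rats (SD, n = 4). All ages overlapped, and the smallest unadjusted p of the 5 comparisons was 0.131. The age means spanned 0.28, against 1.96 for Mt1a.

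Slc30a1, the zinc exporter, moved within a narrow range. It read 1.02, 0.98 and 0.96 at 3 months, 1.41, 1.44 and 1.31 at 9 months, and 1.13, 1.34 and 0.80 at 12 months. It read 1.37, 1.34 and 1.45 at 18 months, and 1.09, 0.96, 1.15 and 1.02 at 24 months. The arrays of 9 and 18 months lay above all those of 3 and 24 months, and the 12-month arrays spread across both. An age difference was called by limma (adjusted p = 0.0459) but was lost in 20 of 29 alternatives. Of the single steps none was called: the change was 0.40 ± 0.13 at 9 against 3 months (adjusted p = 0.102) and -0.33 ± 0.12 at 24 against 18 months (adjusted p = 0.0613). At 9 months, where Mt1a was low, Slc30a1 was not low, and the part of MTF1 in either was not tested.

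Other zinc transporters showed single changes. Among 10 measured importers, Slc39a4 (ZIP4), a plasma membrane zinc importer, was higher at 9 against 3 months (1.62, limma adjusted p = 0.0103). It was lower at 12 against 9 months (-1.27, limma adjusted p = 0.0343), a call lost in 9 of 21 alternatives. No other importer was called at either step, where 5.14% and 6.27% of all genes were called. Of 8 other exporters and vesicle transporters, Slc30a10, a manganese exporter, was lower at 24 against 3 months (-0.64, limma adjusted p = 0.0142), Slc30a6 was lower at 12 against 9 months (-0.69) and Slc30a3 at 24 against 18 months (-1.37). In that order, 13.3%, 6.27% and 25.8% of all genes were called in these comparisons. After normexp background correction the change of Slc30a10 was 0 to 2 decimals, at -0.0021.

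Slc31a1, the copper importer, had the largest values at 18 months, and these arrays share a scan session. It read -1.99, -2.01 and -2.31 at 3 months, -1.72, -1.99 and -1.68 at 9 months, and -1.84, 0.09 and 0.04 at 12 months. It read 1.70, 1.72 and 1.46 at 18 months, and -2.66, -2.43, -2.72 and -2.47 at 24 months. The 18-month arrays lay above all others, and among the 12-month arrays replicate 2 was at the level of 9 months while replicates 3 and 4 stood between. Slc31a1 was 4.59-fold higher at 18 against 12 months (log2 change 2.20 ± 0.37, limma adjusted p = 0.0107) and 18.3-fold lower at 24 against 18 months (-4.20 ± 0.35, limma adjusted p = 3.74e-06). The probe lies at chr5:79385906-79385965 of rn4 on the plus strand, and it is the only probe of the gene.

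The 5 arrays of session 2 read 0.04 to 1.72 for Slc31a1, and the 11 arrays of session 1 read -2.72 to -1.68. The gap of 1.72 between the sessions was matched or exceeded by 1 gene of 21458, Slc31a1 itself, although 871 genes (4.06%) had all session 2 arrays above all session 1 arrays. At 12 months, the age that both sessions hold, session 2 minus session 1 was 1.91, and 610 genes (2.84%) differed there at least as far in either direction. With session as a block, the change at 24 against 18 months was -2.29 (adjusted p = 0.000828) and at 18 against 12 months 1.56 (0.000501). Within session 2 alone the 18-month arrays were higher than the 12-month arrays by 1.56 (limma adjusted p = 0.0275), but these ages lay on different slides there. At 12 against 9 months the change was 1.23 without a block (limma adjusted p = 0.0681), and -0.05 within session 1. With slide as a random block the change at 18 against 12 months lost its call (2.64, adjusted p = 0.169). Without 18 months replicates 1 or 3 its adjusted p was 0.0534 and 0.0543. Without 12 months replicate 2 the change at 12 against 9 months was called, at 1.86 with an adjusted p of 0.000124. All 18-month arrays lie in session 2 and all 24-month arrays in session 1, and these ages share no scan day, so age and scan day cannot be told apart at that step. The value with session as a block takes days 1 and 3 as equal and rests on 12 months replicate 2, the 1 array of that age in session 1, as does the value within session 1.

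**Figure D4:**
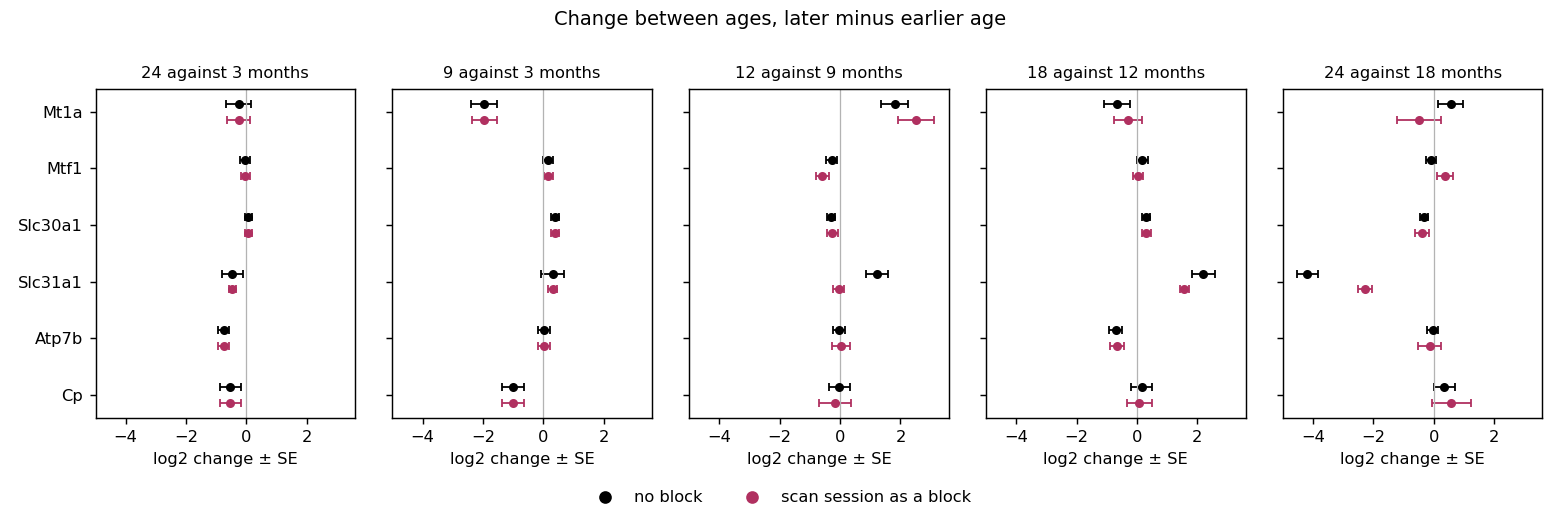
Log2 change ± SE (horizontal axis) of the 6 genes in 5 comparisons, later minus earlier age, from limma with no block (black) and with scan session as a block (red). Slc31a1 is at -4.20 without and -2.29 with the block at 24 against 18 months and lies near 0 at 12 against 9 months with the block. The ages of 9 against 3 and 24 against 3 months all lie in session 1, so the block cannot shift the changes in these panels, but it alters their SE. For Slc31a1 at 24 against 3 months (-0.46) the SE was 0.35 without and 0.13 with the block. Its limma adjusted p was 0.435 without and 0.0230 with the block.

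The genes with a profile most like Slc31a1 were Cox7c, a subunit of cytochrome c oxidase (0.58), Rpl36al-ps5, a ribosomal protein pseudogene (0.65), and C8h3orf18 (0.66). They were chosen for likeness to Slc31a1 on these same arrays, so a split by session is no separate observation. Each was higher on all session 2 arrays than on any session 1 array: Cox7c read 3.31 to 4.06 in session 2 and 0.77 to 2.09 in session 1. Cox7c averaged 1.67, 1.98, 2.87, 3.99 and 1.28 in order of age.

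Atp7b, the copper ATPase, was lower at the 2 oldest ages. It read -0.70, -0.77 and -0.98 at 3 months, -0.64, -0.77 and -0.94 at 9 months, and -0.75, -0.58 and -1.14 at 12 months. It read -1.77, -1.50 and -1.33 at 18 months, and -1.60, -1.43, -2.03 and -1.22 at 24 months. Every array of 18 and 24 months lay below every array of 3, 9 and 12 months. Atp7b fell by 0.76 ± 0.19 at 24 against 3 months, or 1.69-fold, with a limma adjusted p of 0.0190. Its slope over age was -0.044 per month (limma adjusted p = 0.0137), but it turned to 0.0088 with slide as a fixed block and to 0.0061 within scan day 1, which holds 3, 9 and 12 months alone, and it lost its call in 4 of 32 alternatives more. Of the steps, 18 against 12 months had a change of -0.71 ± 0.21 with an unadjusted p of 0.00408, which did not pass adjustment (0.107). The probe lies at chr16:74676004-74676063 of rn4, on the plus strand.

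The levels of Atp7b overlapped between the scan sessions: session 2 arrays read -1.77 to -0.58 and session 1 arrays -2.03 to -0.64, and within session 1 alone the change at 24 against 3 months was -0.76 (limma adjusted p = 0.0275), a fit that still sets day 3 against day 1. It did depend on how background was treated, since normexp background correction gave -0.29 (adjusted p = 0.502), a setting in which the median of all genes was 0.12, against -0.04 without it. No slide holds both ages, and with slide as a random block the change was -0.74 (adjusted p = 0.330). Without 3 months replicates 1 or 2 the adjusted p was 0.0856 and 0.0744.

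Cp, the gene of the plasma ferroxidase ceruloplasmin, is read by 4 probes, whose sequences are printed because they disagreed. A_44_P404836 (chr2:105129630-105129689) and A_43_P11448 (chr2:105129670-105129729) overlap by 20 bases, shown in capitals. A_44_P139939 lies upstream at chr2:105118525-105118581, all on the plus strand of rn4, and is the brightest and stands for the gene. A_44_P459031 has no position in the file.
A_44_P139939: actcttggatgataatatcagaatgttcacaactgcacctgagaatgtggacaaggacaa
A_44_P404836: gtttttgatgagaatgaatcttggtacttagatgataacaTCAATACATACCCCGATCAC
A_43_P11448: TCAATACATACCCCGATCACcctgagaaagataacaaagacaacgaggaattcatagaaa
A_44_P459031: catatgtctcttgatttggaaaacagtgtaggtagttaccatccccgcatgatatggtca
The array describes the last as a probe for a bilitranslocase mRNA, and it shares no run of more than 6 bases with the others on either strand. Whether it measures Cp cannot be told from the file.

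The 3 placed probes were all lower at 9 than at 3 months. A_44_P139939 read 5.37, 5.49 and 5.39 at 3 months, 4.44, 4.41 and 4.37 at 9 months, and 4.23, 4.35 and 4.56 at 12 months. It read 4.44, 4.45 and 4.72 at 18 months, and 4.81, 4.62, 6.11 and 4.01 at 24 months. All 3-month arrays lay above every other array except 24 months replicate 3, which was the highest of all. The change at 9 against 3 months was -1.01 ± 0.36, with an unadjusted p of 0.0137 and an adjusted p of 0.134. It was called in 7 of 22 alternatives, among them the fit within scan day 1 (-1.01, limma adjusted p = 0.000681) and the mean of the 4 probes (-0.69, adjusted p = 0.0472), and also a fit within slide 1 that rests on 1 array of 9 months. The other 2 placed probes changed by -0.88 (A_44_P404836) and -1.08 (A_43_P11448) at that step, with limma adjusted p-values over all probes of 0.177 and 0.164.

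At 24 months the Cp probes diverged. The change of A_44_P139939 at 24 against 3 months was -0.53 (limma adjusted p = 0.346), and without 24 months replicate 3 it was -0.93 (0.00421). A_43_P11448 read 2.28, 2.07, 2.37 and 1.68 at 24 months, against 3.59, 3.36 and 3.36 at 3 months, and these groups did not overlap. It was lower by 2.52-fold (log2 change -1.34, limma adjusted p over all probes = 0.0339), where 12.4% of all probes were called. That call was lost in 10 of 18 alternatives, among them those without any 1 of the 3-month arrays, with adjusted p-values of 0.120, 0.0915 and 0.0866, and without 24 months replicate 1, 2 or 4, with 0.0529, 0.0641 and 0.0662. A_44_P404836 read 4.04, 3.81, 4.81 and 3.29 at 24 months, against 4.86, 4.92 and 4.77 at 3 months, and replicate 3 alone of the 24-month arrays reached the 3-month range.

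The 2 overlapping probes did not change alike between scan sessions. At 18 months A_43_P11448 read 3.43, 3.43 and 3.57, at the level of 3 months, and at 12 months 1.34, 3.17 and 3.50, where the 2 higher arrays are those of session 2. Within an array, the log2 difference of A_43_P11448 minus A_44_P404836 was -0.85 to -0.77 on the 5 arrays of session 2 and -2.44 to -1.27 on the 11 of session 1. The probe was called lower at 24 against 18 months (-1.38, limma adjusted p over all probes = 0.0170, where 23.9% of probes were called), and with session as a block the change was 0.61 (adjusted p = 0.230). The unplaced probe A_44_P459031 had no call, and its highest reading was 0.38 on 12 months replicate 2.

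**Figure D5:**
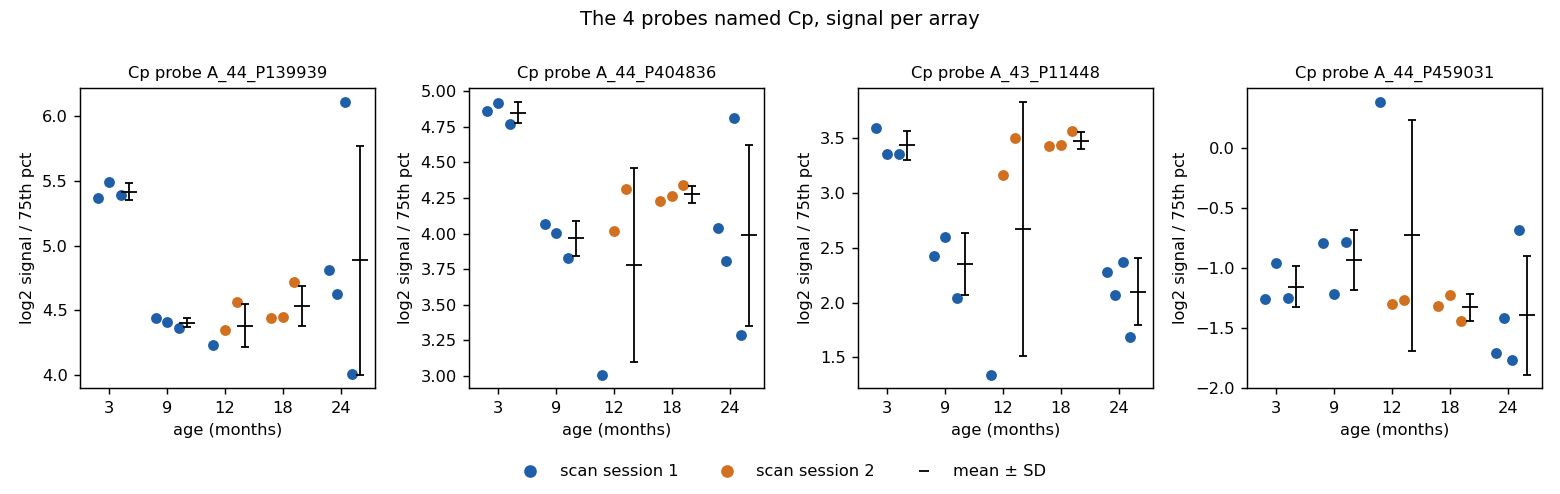
Log2 signal relative to the 75th percentile of the array (vertical axes, which differ between panels) for the 4 probes named Cp, by age in months. Points are arrays, coloured by scan session, and bars are mean ± SD (n = 3, and n = 4 at 24 months). The 3 placed probes are lower at 9 than at 3 months. After 3 months, A_43_P11448 is at or near its 3-month level on the session 2 arrays alone, of which 12 months replicate 3 (3.17) lies below it.

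The high Cp reading of 24 months replicate 3 came with other shifts on that array. Its 4 neutrophil markers summed to 50.2, against 1.32 to 11.4 on the other 24-month arrays, and its 17 acute phase genes averaged 8.78 in log2 signal, against 7.78 to 7.92 on the others. Its hepatocyte markers summed to 3431, against 4712 to 5867. The part of these shifts in its Cp value was not tested. Over all arrays of 24 against 3 months 2 of 17 acute phase genes, of which ceruloplasmin is a known companion, were lower, the haem binder Hpx (-0.41) and complement C3 (-0.48), and 0 were higher, where 9.08% of all genes were called lower. At 9 against 3 months Hpx (-0.49) and the glycoprotein gene Orm1 (-1.79) were lower and 0 were higher, where 3.2% of all genes were called lower. The call of C3 was lost in 14 of 19 alternatives and that of Hpx at 24 against 3 months in 12 of 19. At 9 against 3 months the call of Hpx was lost in 12 of 21 and that of Orm1 in 8 of 21.

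The genes most like Cp in profile were Efemp2, an elastic fibre protein (0.21), Col5a2, a fibrillar collagen chain (0.23), and Ctla2a (0.23). Efemp2 averaged 1.76, 0.58, 0.79, 0.57 and 1.42 in order of age. Summed stellate cell and fibroblast markers, 6 in all, were 25.4 to 29.2 at 9 months, against 38.7 to 44.7 at 3 months. They were 23.1 to 29.4 at 12 months, 14.1 to 17.6 at 18 months and 21.8 to 24.1 at 24 months. At 9 against 3 months 1 of the 6 was called lower, Col3a1 (-1.04), where 3.2% of all genes were called lower. Col1a1 (0.0013) and Pdgfrb (0.14) did not fall at that step. The part of these shifts in the Cp values was not tested.

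Of 29 measured genes of the wider copper pathway, 4 were called at 24 against 3 months, a share of 13.8% beside 13.3% of all genes. Among 14 chaperones and other transporters Ccs, the chaperone that loads copper into superoxide dismutase 1, was higher (0.55, limma adjusted p = 0.00359), and none was lower. Of 15 genes listed as copper enzymes and related proteins F8, coagulation factor VIII, was higher (0.62), and 2 were lower: Loxl2, a lysyl oxidase that crosslinks collagen (-1.62, limma adjusted p = 2.07e-05), and Heph, a membrane ferroxidase related to ceruloplasmin (-1.51, limma adjusted p = 0.0208). Heph and Loxl2 were also the 2 genes of that list called at 9 against 3 months, both lower, by 2.42 and 1.58 on the log2 scale. Loxl2 kept its call in all 19 alternatives run for 24 against 3 months, Ccs in 17, Heph in 10 and F8 in 9. The medians of the list of chaperones and other transporters and of that of enzymes and related proteins were -0.13 and -0.47, against -0.04 for all genes.

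The later steps differed in how many of these genes were called. At 18 against 12 months limma called 0 of 79 measured genes of the related lists, with 9 at an unadjusted p under 0.05, where 1.39% of all genes were called. At 24 against 18 months it called 10 of 79, where 25.8% of all genes were called. Among the enzymes and related proteins, Cox4i1, F8, Loxl1, Loxl2, Pam and Sod3 were higher, by 0.48 to 0.99, and Aoc3 was lower (-2.59). The others called were the divalent metal transporter Slc11a2 (0.84), Xiap, an apoptosis inhibitor that also binds copper (-0.89), and Slc30a3. Of these, F8 lost its call in 11 of 18 alternatives, Pam in 8 of 18 and the others in fewer. At 12 against 9 months the copper genes called were Cox4i1 (-0.56), Loxl1 (-0.89) and the metalloreductase Steap3 (-1.50), all lower, where 6.27% of all genes were called. Cox4i1 and Steap3 lost that call in 12 of 21 alternatives and Loxl1 in 11. The ages of the last step lie in different scan sessions throughout.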

How the data were processed

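RNA of 16 liver samples was measured on one-colour Agilent rat arrays, 1 per sample, and samples were grouped by the stated age. Per the file headers, the processed signal, mean signal and local background are intensity values made with Agilent Feature Extraction 10.7.3.1, with no normalization between arrays, and positions refer to build rn4. Flags for spots (a unit other than signal) mark background, saturation and outliers, per the file headers. A further set of values that the authors deposited is on the log2 scale, with array medians of 4.92 to 4.94 and an unstated normalization, and was used as an alternative. The labels' protocols name a labelling kit for microRNA although the probes are for mRNA, and this was not resolved.

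The log2 of the processed signal was set against each array's 75th percentile. Outlier spots were left out (79 missing values). Of 41012 probes 25698 were used, those well above background on every array of 1 age or more. A gene was represented by its kept probe of highest mean. Of the probes, 18028 took their gene name by accession, 3568 by symbol or synonym, and 19416 kept that of the array. Age means were fitted with limma 3.58.1 in R 4.3.3 (package data.table, version 1.17.8), with two-sided moderated tests, Benjamini-Hochberg adjustment over all genes and a threshold of 0.05. The procedure was tested on simulated data with independent noise on each array and no slide effect. That test therefore does not cover the correlation within slides. Figures used Python 3.11.15, matplotlib 3.10.9 and pandas 2.3.3. The number of arrays limits the precision.

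The 6 members and the gene lists were chosen with earlier results of these data known. Named genes are all members, list members called for 24 against 3 months (at most 4 a list) or needed by a count of few, and the 3 most similar profiles for members whose age means span at least 1. Other names and alternatives are given where they are used. Alternatives were quantile normalization, normexp (offset 50), the deposited log2 values, no filter, a filter that asks for signal on every array, probes averaged per gene, single probes, slide, scan session, scan day or replicate number as a block, fits within these, the compared ages alone, log2 age and leaving out each array. Leaving out 24-month arrays 3 and 4 together was added after seeing the data.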

Additional observations from a re-analysis of the deposited data

Results flagged for a closer look

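Mtf1 on 24 months replicate 2 read -2.06, apart from the other 24-month arrays, which read -2.56 to -2.50. Its gap to the nearest of them was 0.883 of the range of the group, above the 95% limit of Dixon's test for 4 samples. Chance marks about 1 in 20 groups of this size in this way, and 9 probes were examined.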

How the results depend on the processing

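The counts of the 6 genes called moved as follows. For 24 against 3 months the count of 1 was 0 with normexp, with slide as a random block and with the compared ages alone, and 2 with the mean of probes, with session as a block and without 24-month arrays 3 and 4. For 9 against 3 months the count of 1 was 2 with normexp, the mean of probes and slide as a random block, and 3 within slide 1, within scan day 1 and with the compared ages alone. For 12 against 9 months it was 0 with normexp, no filter, the replicate block, within slide 2 and with the compared ages alone, and 2 with the filter on all arrays. For 18 against 12 months it was 0 with slide as a random block, the replicate block and the compared ages alone. Any age difference gave 2 in place of 4 with slide as a random block, and the trend gave 0 with normexp, slide as a random or fixed block, scan day as a block and log2 age. Leaving out 1 array gave 0 to 2 calls for 24 against 3 months, 0 to 1 for the steps to 9, 12 and 18 months, 1 to 1 for 24 against 18 months and the trend, and 2 to 5 for any age. The cause of these moves was not tested, beyond the smaller number of arrays in fits within a slide or day, where slide 1 holds 1 array of 9 months and slide 2 and scan day 1 hold 1 array of 12 months.

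Reversed were the slope of Atp7b (0.0088 with slide as a fixed block and 0.0061 within scan day 1), A_43_P11448 of Cp at 24 against 18 months (0.61 with session as a block), and Slc31a1 at 12 against 9 months: -0.15 with slide as a fixed block and within slide 2, and -0.048 with session or day as a block and within session 1 or day 1. Scan day 1 holds 3, 9 and 12 months alone.

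Replicate numbers did not pair the samples: deviations of same-numbered samples correlated at -0.367 to 0.0958. With the replicate block, Slc31a1 at 18 against 12 months had an adjusted p of 0.0547 and Mt1a at 12 against 9 months of 0.0888, and any age difference was called for 3 genes.

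Over all genes, calls ranged from 311 (slide as a random block) to 3809 (session block) for 24 against 3 months against 2859 as reported, 339 to 4124 against 1102 for 9 against 3, 166 to 7395 against 1346 for 12 against 9, 0 to 724 against 299 for 18 against 12, 974 to 6182 against 5542 for 24 against 18, 1617 to 9993 against 8033 for any age, and 46 to 2352 against 1245 for the trend. The correlation within slides was 0.687.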
